A study of Mus musculus with 6 samples.

Results

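The genes described here are 31 markers of the cells that build vessels, read in hair germ stem cells that were sorted from mouse back skin. They were chosen by symbol from a list of endothelial, lymphatic and mural cell genes, and all 31 were found among the 46517 genes measured. By textbook role, 15 mark blood endothelium (Pecam1, Cdh5, Kdr, Flt1, Tek, Tie1, Vwf, Emcn, Esam, Eng, Egfl7, Erg, Plvap, Robo4 and Ptprb), 4 mark lymphatic endothelium (Flt4, Mmrn1, Prox1 and Lyve1) and 12 mark mural cells (Acta2, Myh11, Des, Tagln, Cnn1, Myl9, Rgs5, Pdgfrb, Cspg4, Mcam, Abcc9 and Kcnj8). The rule that selects them uses symbols and no value from the files, but the list was chosen with earlier results of these data known.

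The 6 RNA libraries fell into 3 groups of 2, all from mixed-sex mice at postnatal day 60, with cells collected 3 days after depilation, which starts a new hair cycle. All animals carried Sox9-CreER, an inducible Cre recombinase under a promoter active in the hair follicle, together with a YFP reporter at R26 that is silent until Cre removes a stop cassette. The wild type (WT) had no further allele, LEF1cKO added Lef1fl/fl, which is lost only where Cre has acted, and LEF1_TCF7dKO, below the double knockout, added both Lef1fl/fl and Tcf7-/-, a null carried by every cell of the animal. The sort used the YFP signal and antibodies to P-cadherin, Sca-1, CD34 and integrin b1. None of their genes is on the list, and how the sort acted on vessel cells was not tested. The design asks what the loss of Lef1, alone or with Tcf7, changes in activated hair germ cells.

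Blood vessels are lined by endothelial cells that adhere through VE-cadherin and PECAM-1 and respond to VEGF and angiopoietin through receptor tyrosine kinases. Lymphatic endothelial cells are set apart by the transcription factor PROX1 and the VEGF-C receptor VEGFR-3, and mural cells, which are smooth muscle cells and pericytes, wrap the vessel and carry a contractile apparatus or the PDGF receptor beta. In skin a capillary plexus surrounds the follicle, and smooth muscle is found in vessel walls and also in the arrector pili muscle attached to the follicle.

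The libraries held 40480694 to 63220022 expected counts and 14743 to 16032 genes at 1 TPM (a level scaled for transcript length and library size) or more. The 10 hair germ keratinocyte markers summed to 12354 and 12827 TPM in WT, 11052 and 14666 TPM in LEF1cKO and 16795 and 21415 TPM in the double knockout, far above any vessel class, while Cdh5, Kdr and Flt1, which define endothelium, were below 1 TPM in both WT libraries. These marker sums rest mostly on keratin genes. In counts scaled for library size, the median of the 10 markers was 0.68 and 0.74 of the WT mean in the double knockout libraries. None of the 31 genes was at 0 in any library. Lef1 RNA stood at 21.4 and 20.4 TPM for WT, 13.5 and 8.37 TPM for LEF1cKO and 9.22 and 9.42 TPM for the double knockout, and Tcf7 RNA at 26.9 and 36.0 TPM, 29.3 and 27.8 TPM, and 13.7 and 18.0 TPM. Both targeted genes were thus lower where the labels place their loss, with RNA still counted. A gene total also holds reads from exons outside a deletion. The labels do not say that libraries of a group came from separate animals, so the p-values measure the spread between these libraries, which may be technical. The double knockout's replicate 1 stood apart from its replicate 2 for the endothelial genes, and results are therefore given with and without it.

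A gene is said to have risen or fallen where edgeR's quasi-likelihood test, fitted on all 19640 genes that passed the filter on low counts, gave a Benjamini-Hochberg adjusted p below 0.05. All 31 genes passed that filter, also when only the WT and LEF1cKO libraries were fitted. Fold changes are log2 values with their standard error.

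In the double knockout against WT, 24 of the 31 genes rose and 1 fell, where 18.0% of all tested genes rose and 19.6% fell. The risers were 13 of 15 blood endothelial genes, 4 of 4 lymphatic genes and 7 of 12 mural genes, and the faller was Mcam. The median log2 fold change was 3.27 over the blood endothelial genes, 3.57 over the lymphatic genes and 2.55 over the mural genes, beside 0.01 over all tested genes. In bulk RNA, more cells of a type and more RNA per cell cannot be told apart. TPM values of both double knockout libraries lay above both WT libraries for 27 of the 31 genes, where 43.4% of all genes did so, and below both for Mcam, where 30.7% did so. Egfl7, Tagln and Cspg4 overlapped.

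**Figure D1:**
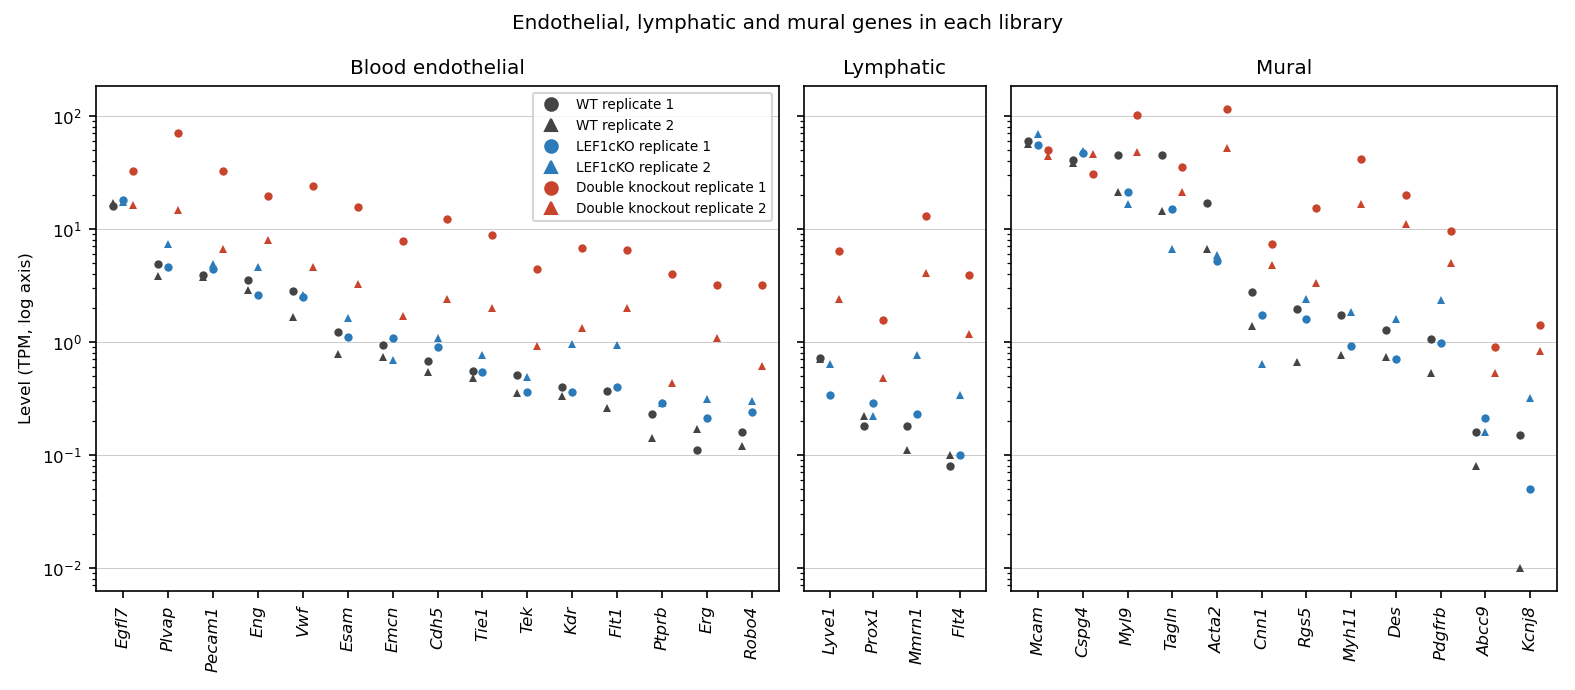
TPM of each of the 31 genes in each of the 6 libraries on a log axis, by class, with 1 point per library and colours for the 3 groups. Most blood endothelial and lymphatic genes lie under 5 TPM in WT and LEF1cKO, and the double knockout's replicate 1 is the highest point for Pecam1 at 32.4 TPM and for Plvap at 70.2 TPM.

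Among the junction proteins of blood endothelium, Cdh5 (VE-cadherin, the adherens junction cadherin, at chr8:104101625-104144511 on GRCm38) was at 0.67 and 0.54 TPM for WT, 0.9 and 1.07 TPM for LEF1cKO and 12.3 and 2.41 TPM for the double knockout. Its double knockout libraries both lay above the other 4 libraries, with replicate 1 well above replicate 2. The log2 fold change against WT was 3.45 ± 0.73, adjusted p = 0.0152. Pecam1, an adhesion receptor at cell contacts (chr11:106654217-106750628), was at 3.91 and 3.73 TPM for WT, 4.38 and 4.89 TPM for LEF1cKO and 32.4 and 6.69 TPM for the double knockout. Here replicate 2 was less than 2 TPM above the highest LEF1cKO library, and the groups did not overlap. Its log2 fold change was 2.44 ± 0.70, adjusted p = 0.038. Esam, a junction adhesion molecule, was at 1.23 and 0.78 TPM for WT, 1.11 and 1.62 TPM for LEF1cKO and 15.4 and 3.27 TPM for the double knockout, whose libraries lay above all others, with replicate 1 highest. Its log2 fold change was 2.97 ± 0.71, adjusted p = 0.0222.

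Of the 4 receptors that take up VEGF and angiopoietin signals, 3 rose and Tek did not pass the test. Kdr (VEGFR-2, the main signalling receptor of VEGF-A) was at 0.4 and 0.33 TPM for WT, 0.36 and 0.95 TPM for LEF1cKO and 6.74 and 1.33 TPM for the double knockout. Flt1 (VEGFR-1, which binds VEGF-A tightly) was at 0.37 and 0.26 TPM for WT, 0.4 and 0.93 TPM for LEF1cKO and 6.54 and 2.01 TPM for the double knockout. For both genes the double knockout libraries lay above all others, replicate 2 by a small margin over LEF1cKO replicate 2 for Kdr. Kdr rose by 3.31 ± 0.82, adjusted p = 0.0244, and Flt1 rose by 3.71 ± 0.67, adjusted p = 0.00939. Tie1, an orphan receptor that modulates angiopoietin signalling, was at 0.55 and 0.48 TPM for WT, 0.54 and 0.76 TPM for LEF1cKO and 8.76 and 2 TPM for the double knockout, which did not overlap with the other groups. It rose by 3.35 ± 0.70, adjusted p = 0.0143. Tek (TIE2), the angiopoietin receptor itself, was at 0.51 and 0.35 TPM for WT, 0.36 and 0.49 TPM for LEF1cKO and 4.37 and 0.91 TPM for the double knockout, with replicate 1 standing alone and replicate 2 just under 1 TPM. It did not pass the test (2.37 ± 0.81, adjusted p = 0.062), although both double knockout libraries lay above all others.

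Eng (endoglin, a coreceptor for BMP9 and TGF-beta) was at 3.49 and 2.86 TPM for WT, 2.61 and 4.56 TPM for LEF1cKO and 19.3 and 7.98 TPM for the double knockout. Both double knockout libraries were above the rest, and it rose by 1.94 ± 0.41, adjusted p = 0.0153. Robo4, an endothelial guidance receptor that steadies the vessel barrier, was at 0.16 and 0.12 TPM for WT, 0.24 and 0.3 TPM for LEF1cKO and 3.15 and 0.61 TPM for the double knockout. Ptprb (VE-PTP, the phosphatase that acts on TIE2 and VE-cadherin) was at 0.23 and 0.14 TPM for WT, 0.29 and 0.29 TPM for LEF1cKO and 4.01 and 0.43 TPM for the double knockout. Neither gene overlapped between groups, and replicate 2 for Ptprb stood only slightly above LEF1cKO. Robo4 rose by 3.63 ± 0.79, adjusted p = 0.0167, and Ptprb rose by 3.44 ± 0.97, adjusted p = 0.0361.

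Of the secreted and surface proteins, Plvap, which forms the diaphragms of fenestrated capillaries, had the highest level of the class in the double knockout's replicate 1, though not in replicate 2, where Egfl7 was higher. It was at 4.91 and 3.8 TPM for WT, 4.58 and 7.32 TPM for LEF1cKO and 70.2 and 14.7 TPM for the double knockout, so that replicate 1 alone exceeded every other library several-fold. Plvap rose by 3.13 ± 0.70, adjusted p = 0.018. Vwf, the clotting protein stored in endothelial granules, was at 2.8 and 1.66 TPM for WT, 2.51 and 2.61 TPM for LEF1cKO and 24 and 4.62 TPM for the double knockout, whose libraries lay above all others. Vwf rose by 3.27 ± 0.75, adjusted p = 0.0194. Emcn (endomucin, a sialomucin of capillaries and veins) was at 0.94 and 0.74 TPM for WT, 1.09 and 0.69 TPM for LEF1cKO and 7.86 and 1.68 TPM for the double knockout. Its replicate 2 stood less than 1 TPM above WT, and the rise of 2.58 ± 0.75, adjusted p = 0.0395 was lost, as were those of Pecam1 and Ptprb, also when either LEF1cKO library was left out (adjusted p 0.004 to 0.182 for Emcn over the alternatives).

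Erg, the ETS-family transcription factor that maintains endothelial identity, was at 0.11 and 0.17 TPM for WT, 0.21 and 0.31 TPM for LEF1cKO and 3.2 and 1.07 TPM for the double knockout. Both double knockout libraries were above all others. Erg rose by 3.51 ± 0.67, adjusted p = 0.0111. Egfl7, which encodes a secreted matrix protein and hosts a microRNA in an intron, was the exception, at 15.8 and 16.8 TPM for WT, 18 and 17.3 TPM for LEF1cKO and 32.1 and 16.1 TPM for the double knockout. It was the most abundant gene of the class in WT, its replicate 2 lay inside the range of the other groups, and it did not pass the test (0.27 ± 0.32, adjusted p = 0.532). Of its 50-base words, 5.33% also occur in an overlapping or copied transcript.

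ETS factors bind sites with a GGAA core, and many endothelial promoters hold such sites, so the 250 bases before each RefSeq start (GRCm38.p6) were searched for CAGGAAG on either strand. Promoters were held for 21 of the 31 genes, 26 promoters in all. The string lay in 5 of 13 promoters of the blood endothelial genes (4 genes, Egfl7, Emcn, Erg and Robo4), in 0 of 4 lymphatic promoters and in 0 of 9 mural promoters, beside 10.8% of all 32851 promoters. These promoters are not all of separate genes, since Egfl7 has the string before different starts. Erg has it before only some of its starts, and the Robo4 match lies within an annotated exon. The stretches below show the match in capitals for an endothelial transcription factor that rose (Erg), for a surface protein gene that rose (Emcn) and for a gene of the class whose groups overlapped (Egfl7, with a match on each strand), each 5′ to 3′ on the gene's strand.
Erg, chr16:95459349-95459468, minus strand: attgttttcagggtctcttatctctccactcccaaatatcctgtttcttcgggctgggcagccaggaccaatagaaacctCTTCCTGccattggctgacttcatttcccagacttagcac
Emcn, chr3:137340904-137341023, plus strand: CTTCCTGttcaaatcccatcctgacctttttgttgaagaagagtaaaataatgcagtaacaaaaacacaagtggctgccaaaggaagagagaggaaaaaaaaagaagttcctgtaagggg
Egfl7, chr2:26580936-26581055, plus strand: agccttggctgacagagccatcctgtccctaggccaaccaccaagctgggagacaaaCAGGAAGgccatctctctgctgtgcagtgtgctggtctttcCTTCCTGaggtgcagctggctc
A match describes the letters only. Of the 4 genes with the string, Erg, Emcn and Robo4 rose and Egfl7 did not pass the test, while Eng, Flt1, Kdr and Tie1, searched likewise, rose without it.

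The blood endothelial calls changed when single libraries were left out. Without WT replicate 1 edgeR called 0 of the 15 genes, with 13 at an unadjusted p under 0.05, and without WT replicate 2 it called 0, with 11 at an unadjusted p under 0.05, while DESeq2 on all libraries called 14, and 20.3% of all genes as risen. Without the double knockout's replicate 1, 7 rises remained, namely Vwf, Flt1, Cdh5, Robo4, Tie1, Plvap and Erg. A fit with a library left out holds 1 library of that group, which is assumed to vary like the libraries of the other groups, here and for such values below. Fewer of all tested genes also rose in the fits without a WT library or the double knockout's replicate 1, with the shares given below. The median log2 fold change of the 15 genes was 3.34 without WT replicate 1 and 3.13 without WT replicate 2. Without that double knockout library Cdh5 was at 1.90 ± 0.28, adjusted p = 0.0322, and over its alternatives the adjusted p of Cdh5 ran from 1.35e-06 to 0.0895.

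The 4 lymphatic genes all rose. Mmrn1, a multimerin secreted by lymphatic endothelium and megakaryocytes (chr6:60924976-60989378), was at 0.18 and 0.11 TPM for WT, 0.23 and 0.77 TPM for LEF1cKO and 12.9 and 4.06 TPM for the double knockout. Both double knockout libraries lay several-fold above every other library, and LEF1cKO replicate 2 stood above both WT libraries. Its log2 fold change was 5.73 ± 0.83, adjusted p = 0.00578, the largest of the 31 genes. Flt4 (VEGFR-3, the receptor for VEGF-C; chr11:49609263-49652739) was at 0.08 and 0.1 TPM for WT, 0.1 and 0.34 TPM for LEF1cKO and 3.91 and 1.16 TPM for the double knockout, with no overlap between the double knockout and the rest. It rose by 4.67 ± 0.82, adjusted p = 0.00871. Lyve1, a hyaluronan receptor of lymphatic vessels that some macrophages also carry, was at 0.72 and 0.7 TPM for WT, 0.34 and 0.63 TPM for LEF1cKO and 6.3 and 2.4 TPM for the double knockout. Its double knockout libraries did not overlap the others. It rose by 2.47 ± 0.52, adjusted p = 0.0148, and both LEF1cKO libraries lay below both WT libraries. Prox1, the transcription factor that specifies lymphatic fate, was at 0.18 and 0.22 TPM for WT, 0.29 and 0.22 TPM for LEF1cKO and 1.56 and 0.48 TPM for the double knockout, the lowest double knockout levels of the 4 and still above every other library. It rose by 2.26 ± 0.54, adjusted p = 0.022.

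Mmrn1 passed the test in all 15 alternative analyses, including each one that left a library out. Without the double knockout's replicate 1, under that assumption, Mmrn1 was at 4.72 ± 0.72, adjusted p = 0.0328, and Flt4 was at 3.60 ± 0.70, adjusted p = 0.0416, while Lyve1 and Prox1 no longer passed. Over the alternatives the adjusted p ran from 2.33e-15 to 0.0427 for Mmrn1 and from 5.35e-09 to 0.0558 for Flt4. Without WT replicate 1 the lymphatic rises were 1 of 4, and without WT replicate 2 they were 1 of 4.

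Of the 6 contractile mural genes 3 rose, and of the 6 pericyte genes 4 rose and 1 fell. Myh11, the smooth muscle myosin heavy chain (chr16:14194535-14291372), was at 1.74 and 0.77 TPM for WT, 0.91 and 1.83 TPM for LEF1cKO and 41.8 and 16.7 TPM for the double knockout. Both double knockout libraries were several-fold above every other library. Myh11 rose by 4.40 ± 0.63, adjusted p = 0.00562. Des (desmin, the intermediate filament protein of muscle) was at 1.28 and 0.74 TPM for WT, 0.71 and 1.58 TPM for LEF1cKO and 19.8 and 11 TPM for the double knockout, whose libraries lay above all others. Des rose by 3.78 ± 0.48, adjusted p = 0.00445. Acta2, smooth muscle alpha-actin (chr19:34241090-34255590), was at 16.9 and 6.6 TPM for WT, 5.22 and 5.81 TPM for LEF1cKO and 115 and 52 TPM for the double knockout. The WT libraries differed more than 2-fold between themselves, and both double knockout libraries were higher than either. Acta2 rose by 2.69 ± 0.53, adjusted p = 0.0121.

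Myl9, the regulatory light chain of smooth muscle myosin, was at 44.7 and 21 TPM for WT, 21.3 and 16.6 TPM for LEF1cKO and 101 and 47.4 TPM for the double knockout. Its double knockout replicate 2 was less than 3 TPM above WT replicate 1, and it did not pass the test (1.03 ± 0.45, adjusted p = 0.119). Cnn1 (calponin, which binds actin and tropomyosin) was at 2.76 and 1.37 TPM for WT, 1.71 and 0.63 TPM for LEF1cKO and 7.4 and 4.78 TPM for the double knockout. It did not pass either (1.42 ± 0.57, adjusted p = 0.0992), although both double knockout libraries lay above all others. Tagln (transgelin, SM22) was at 45.1 and 14.3 TPM for WT, 15 and 6.66 TPM for LEF1cKO and 35.2 and 21.1 TPM for the double knockout, with WT replicate 1 above both double knockout libraries. Its value was -0.22 ± 0.62, adjusted p = 0.802. Tagln shares 58.3% of its 50-base words with other GENCODE M21 transcripts, chiefly an overlapping antisense gene that the deposited symbols do not list, and no source used here says how counting treated strand, so its level is uncertain.

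Contractile genes are classic targets of serum response factor, which binds the CArG box. Only the strict form CCWWWWWWGG was searched, where W is A or T. On either strand, that form lay in 1 of 9 mural promoters, that of Myl9, and in 1.47% of all promoters. Strings with another letter in the middle, such as CCCTATATGG before Acta2, were not counted, so a promoter without a match may hold a looser box. The Myl9 stretch is shown with the box in capitals because it is the only match to the strict form among the 21 genes searched.
Myl9, chr2:156775300-156775419, plus strand: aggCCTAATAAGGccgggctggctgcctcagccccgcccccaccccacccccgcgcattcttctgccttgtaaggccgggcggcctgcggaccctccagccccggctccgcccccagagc
That gene did not pass the test against WT. The TATA string TATAAA lay in the promoters of Erg, Flt1 and Prox1 and in 12.4% of all promoters.

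Among the pericyte genes, Pdgfrb (the PDGF-B receptor that recruits pericytes, which fibroblasts also express) was at 1.05 and 0.53 TPM for WT, 0.97 and 2.34 TPM for LEF1cKO and 9.63 and 4.97 TPM for the double knockout. The double knockout libraries were the highest, with LEF1cKO replicate 2 above both WT libraries, and it rose by 3.06 ± 0.56, adjusted p = 0.0099. Rgs5, a regulator of G-protein signalling typical of pericytes, was at 1.93 and 0.66 TPM for WT, 1.59 and 2.4 TPM for LEF1cKO and 15.2 and 3.28 TPM for the double knockout. Its replicate 2 was less than 1 TPM above LEF1cKO replicate 2, and it rose by 2.72 ± 0.81, adjusted p = 0.0414, a call that held only without the double knockout's replicate 2 among the fits with a library left out (highest adjusted p 0.215). Abcc9 and Kcnj8 encode the SUR2 and Kir6.1 subunits of the ATP-sensitive potassium channel of vascular muscle. Abcc9 was at 0.16 and 0.08 TPM for WT, 0.21 and 0.16 TPM for LEF1cKO and 0.89 and 0.53 TPM for the double knockout, all below 1 TPM, and it rose by 2.41 ± 0.45, adjusted p = 0.0105. Kcnj8 had 11 and 1 counts for WT, 3 and 23 counts for LEF1cKO and 81 and 50 counts for the double knockout, the fewest of the 31 genes, with both double knockout libraries above all others. Kcnj8 rose by 3.78 ± 1.10, adjusted p = 0.0397, and did not pass without WT replicate 2 or without either double knockout library (adjusted p 0.00726 to 0.151 over the alternatives).

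The remaining pericyte markers, Cspg4 and Mcam, were more abundant in every WT and LEF1cKO library than the other pericyte markers. Cspg4 (NG2, a proteoglycan of pericytes and of some epithelial stem cells) was at 40.8 and 38.6 TPM for WT, 47.3 and 49.3 TPM for LEF1cKO and 30.7 and 46 TPM for the double knockout, overlapping the WT libraries and lying below both LEF1cKO libraries, with a value of -0.18 ± 0.20, adjusted p = 0.507. In counts scaled for library size, the double knockout's replicate 1 was at 0.69 of the WT mean and its replicate 2 at 1.07 of it. With replicate 2 left out, Cspg4 was called as fallen against WT and against LEF1cKO, and Mcam was not. Mcam (CD146, an adhesion molecule of vessels and other cells; chr9:44134469-44142727) was at 59.8 and 55.9 TPM for WT, 55 and 69 TPM for LEF1cKO and 50.3 and 44.1 TPM for the double knockout. Both double knockout libraries were below all 4 others, and Mcam fell by 0.44 ± 0.12 on the log2 scale (adjusted p = 0.0303). That call was lost with scaling by library size alone, with both limma fits, with the replicate block, and without either WT or either double knockout library (adjusted p 0.00441 to 0.198 over the alternatives).

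Myh11 and Des passed the test in all 15 alternatives, and Acta2 failed only without the double knockout's replicate 1. Without that library, with the spread again taken from the other groups, Myh11 was at 3.64 ± 0.58, adjusted p = 0.0339, and Des was at 3.36 ± 0.50, adjusted p = 0.0322. Over the alternatives the adjusted p ran from 4.76e-08 to 0.0339 for Myh11 and from 1.81e-15 to 0.0322 for Des. The mural rises numbered 2 without it, 6 without WT replicate 1 and 3 without WT replicate 2. Over the 31 genes the rises numbered 11, 7 and 4 in those fits, where 7.36%, 6.93% and 4.64% of all tested genes rose.

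**Figure D2:**
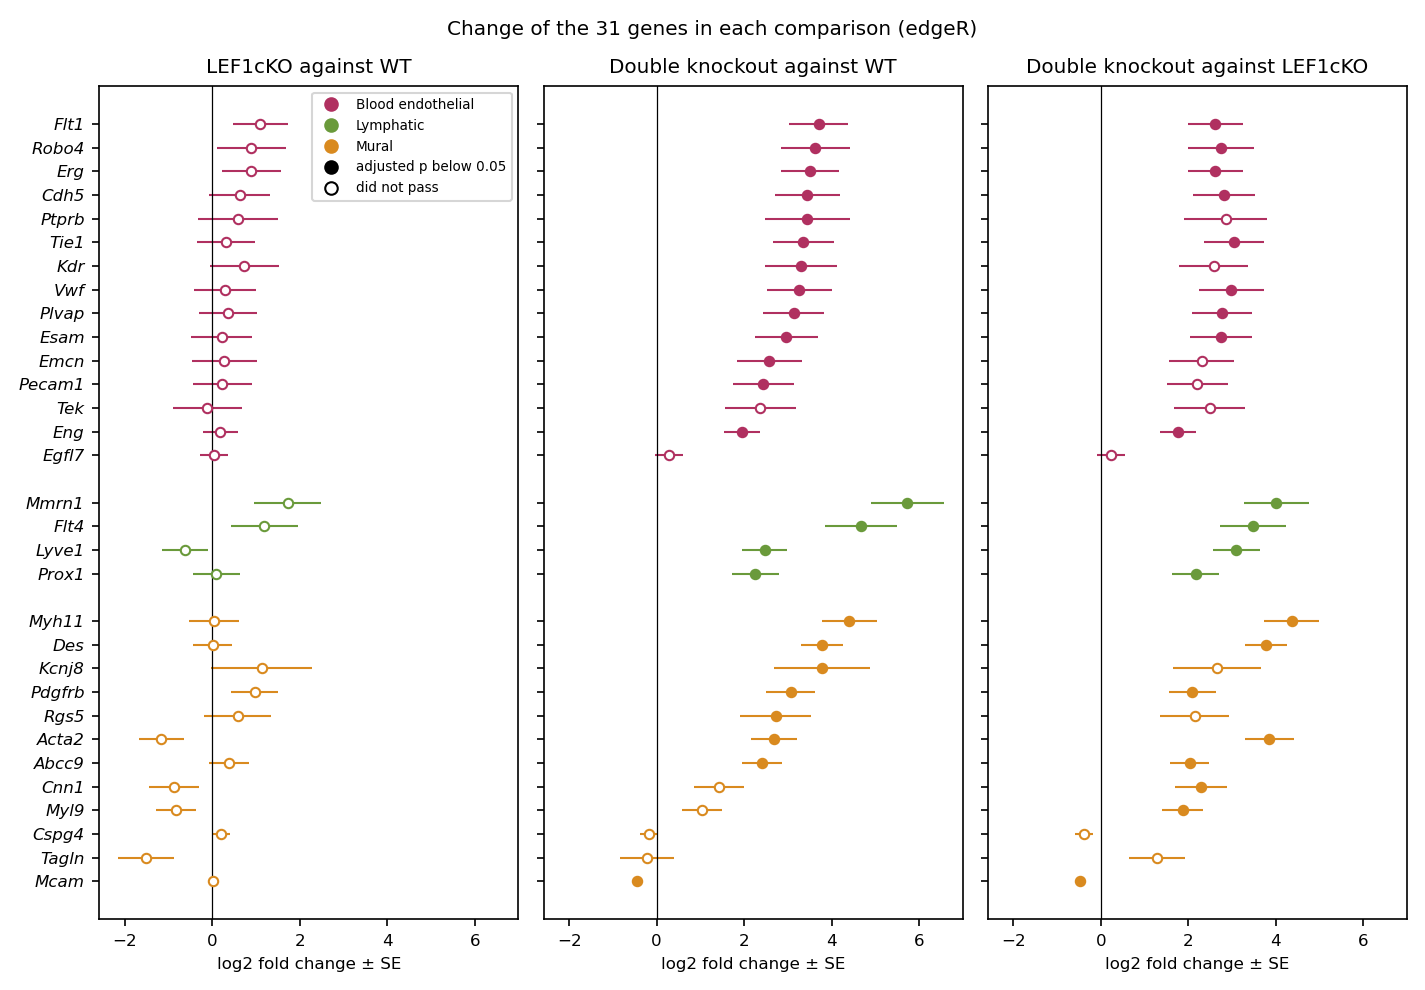
Log2 fold change with its standard error for each of the 31 genes in each of the 3 comparisons, 1 panel each, with filled points where the adjusted p was below 0.05. In the panel of LEF1cKO against WT no point is filled, and against WT the double knockout points of the lymphatic genes lie between 2.26 and 5.73.

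In LEF1cKO against WT, 0 of the 31 genes passed edgeR's test in either direction, with 0 at an unadjusted p under 0.05 and a smallest adjusted p of 0.542 for Tagln. DESeq2 also called 0, with 2 at an unadjusted p under 0.05. Of all tested genes, 0.224% rose and 0.377% fell in this comparison. The largest positive estimate was Mmrn1 at 1.72 ± 0.77, and the lowest were Tagln at -1.51 ± 0.64 and Acta2 at -1.16 ± 0.52. Both LEF1cKO libraries lay above both WT libraries in TPM for 9 genes, where 28.3% of all genes did so, and below both for Lyve1 and Acta2, where 13.4% did so. The median log2 fold change was 0.31 for the blood endothelial genes, 0.64 for the lymphatic genes and 0.03 for the mural genes. This comparison and the one above use the same WT libraries, so their values are given side by side only.

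The LEF1cKO libraries differed from each other. Replicate 2 was higher than replicate 1 for Kdr (0.95 against 0.36 TPM), Flt4 (0.34 against 0.1 TPM), Mmrn1 (0.77 against 0.23 TPM) and Pdgfrb (2.34 against 0.97 TPM). The median ratio of replicate 2 to replicate 1 in CPM (counts scaled for library size with TMM factors and not for length) was 1.28 for the blood endothelial genes, 2.41 for the lymphatic genes and 1.11 for the mural genes. Tagln, Cnn1, Myl9 and Emcn went the other way, with ratios of 0.414, 0.345, 0.718 and 0.731. Egfl7 (0.853), Abcc9 (0.879), Ptprb (0.957) and Cspg4 (0.972) did so by less.

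Between the knockouts, the double knockout against LEF1cKO, 20 of the 31 genes rose and Mcam fell, where 11.2% and 14.1% of all tested genes did. The risers were 9 of 15 blood endothelial, 4 of 4 lymphatic and 7 of 12 mural genes. Acta2 rose by 3.85 ± 0.56, adjusted p = 0.0121, and Lyve1 rose by 3.09 ± 0.54, adjusted p = 0.0159. Cnn1 (2.29 ± 0.59, adjusted p = 0.039) and Myl9 (1.87 ± 0.46, adjusted p = 0.0346) passed here, whereas Pecam1 (adjusted p = 0.0632) and Kdr (2.58 ± 0.79, adjusted p = 0.0602) did not. TPM did not overlap and was higher in the double knockout for 28 genes, where 35.0% of all genes did so. It was lower for Cspg4 and Mcam, where 29.4% did so. Without the double knockout's replicate 1, edgeR called 0 of the 31 genes, with 21 at an unadjusted p under 0.05 and a smallest adjusted p of 0.0777, and 1 gene of all those tested rose, 0.0049%. DESeq2 on all libraries called 25 of the 31 genes and 16.1% of all genes as risen. The rises were 3 without LEF1cKO replicate 1, where 3.48% of all tested genes rose, and 9 without LEF1cKO replicate 2, where 13.1% rose. They were 8 without WT replicate 1 and 8 without WT replicate 2, where 5.44% and 5.16% rose.

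The double knockout libraries differed from each other for the endothelial genes. In replicate 1 the CPM of the blood endothelial genes was a median of 4.62 times that in replicate 2, from 1.97 for Egfl7 to 9.13 for Ptprb, and 14 of 15 genes were at least 2-fold higher. Of all tested genes, 8.22% were. The ratio for the lymphatic genes ran from 2.55 to 3.28, with a median of 3.05. For the mural genes the median was 1.71, and 4 of 12 were at least 2-fold higher. The pericyte gene Rgs5 had a ratio of 4.5, Myh11 of 2.43, and Des of 1.71. Over all tested genes the median ratio was 0.994.

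Set against the WT mean in CPM, the blood endothelial genes stood at a median of 16.3-fold in replicate 1 and 2.96-fold in replicate 2. The lymphatic genes stood at 23.7-fold and 7.59-fold, and the mural genes at 7.67-fold and 3.22-fold. Mmrn1 was 80.3-fold over WT in replicate 1 and 25.9-fold in replicate 2, Myh11 was 29.8-fold and 12.3-fold, and Pecam1 was 9.08-fold and 1.74-fold. Thus in replicate 2 Myh11 and Mmrn1 stayed more than 10-fold over WT, while Pecam1 was less than 2-fold over it.

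**Figure D3:**
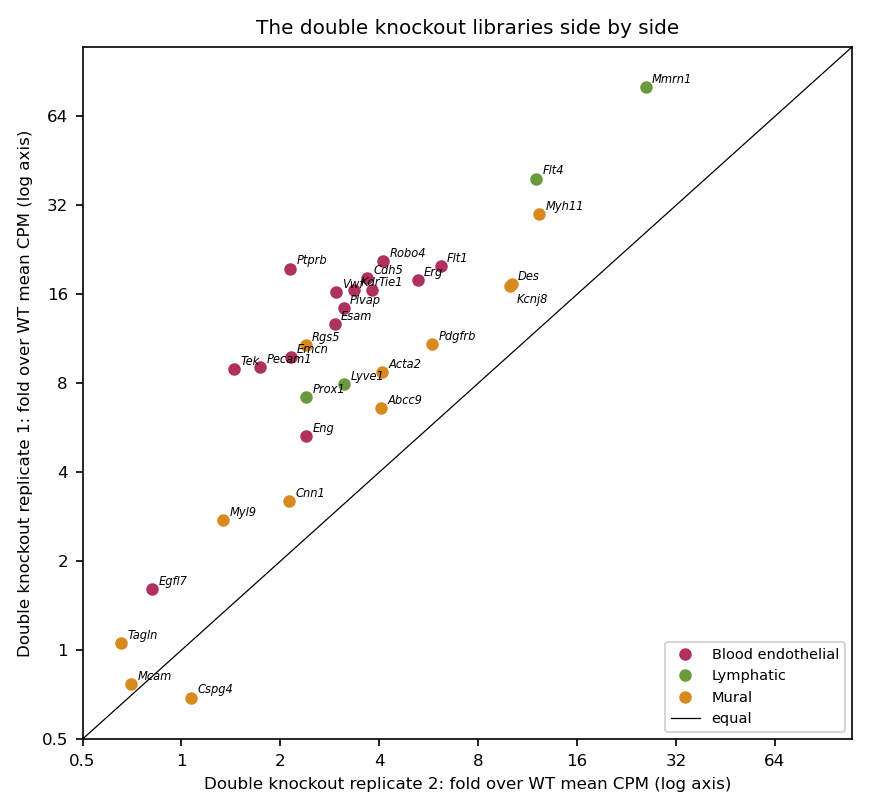
Fold over the WT mean in CPM for each of the 31 genes, with the double knockout's replicate 1 on the vertical and its replicate 2 on the horizontal log axis, with the line of equal values, coloured by class. The blood endothelial points lie off the line towards replicate 1 (median ratio 4.62), and the mural points lie nearer to it (median ratio 1.71).

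Summed over its genes, the blood endothelial class stood at 36 and 32.8 TPM in WT, 37.6 and 44.1 TPM in LEF1cKO and 250.4 and 65.9 TPM in the double knockout. The lymphatic class summed to 1.16 and 1.13 TPM, 0.96 and 1.96 TPM and 24.7 and 8.1 TPM in the same order. The mural class summed to 216 and 141 TPM, 150.1 and 157 TPM and 429 and 253 TPM. Each sum was highest in the double knockout, the mural one by the smallest ratio of group means to WT, and Mcam, Cspg4, Tagln and Myl9 made up most of the mural sum in WT.

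Other vessel genes, from lists that share no gene with the 31, were counted too. The lists were chosen with earlier results of these data known, and the genes named were picked after their values were seen. The counts that follow are for the double knockout against WT. Of all tested genes 18.0% rose and 19.6% fell in that comparison. Of 18 other endothelial genes 12 rose, among them Cldn5 (the tight junction claudin of endothelium; 3.38 ± 0.58, adjusted p = 0.00814) and Gpihbp1 (which anchors lipoprotein lipase in capillaries; 4.13 ± 0.69, adjusted p = 0.00778). Sox7, Sox18, Clec14a, Icam2, Ramp2 and Rasip1 did not pass the test. Of 6 other lymphatic genes 5 rose, including Reln (a secreted matrix protein; 4.74 ± 0.66, adjusted p = 0.00526) and Ccl21a (the chemokine that draws dendritic cells into lymphatics; 3.31 ± 0.51, adjusted p = 0.00671), and Pdpn did not pass. Of 17 other mural genes 8 rose, among them Lmod1 (a smooth muscle leiomodin; 4.19 ± 0.44, adjusted p = 0.00345), and Smtn and Heyl fell. Of 20 vessel growth ligands and coreceptors 12 rose, among them Vegfa (1.21 ± 0.25, adjusted p = 0.0133), and Nrp2 fell (-1.46 ± 0.24, adjusted p = 0.00776). Vegfa RNA was at 18.8 and 29.1 TPM for WT, 32.4 and 45.3 TPM for LEF1cKO and 56.8 and 61.6 TPM for the double knockout, so that its double knockout libraries lay closer together than those of its receptors Kdr and Flt1. In LEF1cKO against WT the median log2 fold change was 0.37 over the other endothelial, 0.15 over the other lymphatic and 0.13 over the other mural genes, against 2.79, 2.29 and 0.67 for the double knockout against WT.

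Fibroblast and leukocyte markers were also higher in the double knockout libraries. The 10 fibroblast markers summed to 455 and 308 TPM in WT, 562 and 1084 TPM in LEF1cKO and 2076 and 1795 TPM in the double knockout, where 9 of 10 rose against WT, and none was at 0 in any library. The 10 leukocyte markers summed to 89.2 and 38.3 TPM, 149 and 252 TPM and 707 and 665 TPM, and 9 of 10 rose, with none at 0. Unlike the blood endothelial genes, these lists were close to level between the double knockout's libraries, with median ratios of replicate 1 to replicate 2 of 1.12 and 1.17. Of the 10 hair germ keratinocyte markers 3 rose and 5 fell against WT, where 18.0% of all tested genes rose and 19.6% fell. The risers were Krt14 (1.02 ± 0.25), Krt15 (1.21 ± 0.29) and Itga6 (0.49 ± 0.10), and the fallers were Lhx2, Sox9, Lgr5, Krt17 and Cdh3. Cdh3, which encodes the sorting antigen P-cadherin, was at 134 and 130.1 TPM for WT, 134 and 116 TPM for LEF1cKO and 65.9 and 85.9 TPM for the double knockout (-0.93 ± 0.18, adjusted p = 0.0109). Itgb1, which encodes the sorting antigen integrin b1, did not pass the test (-0.33 ± 0.11, adjusted p = 0.0632). The part of other cell types or of the sort in the vessel gene values was not tested.

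**Figure D4:**
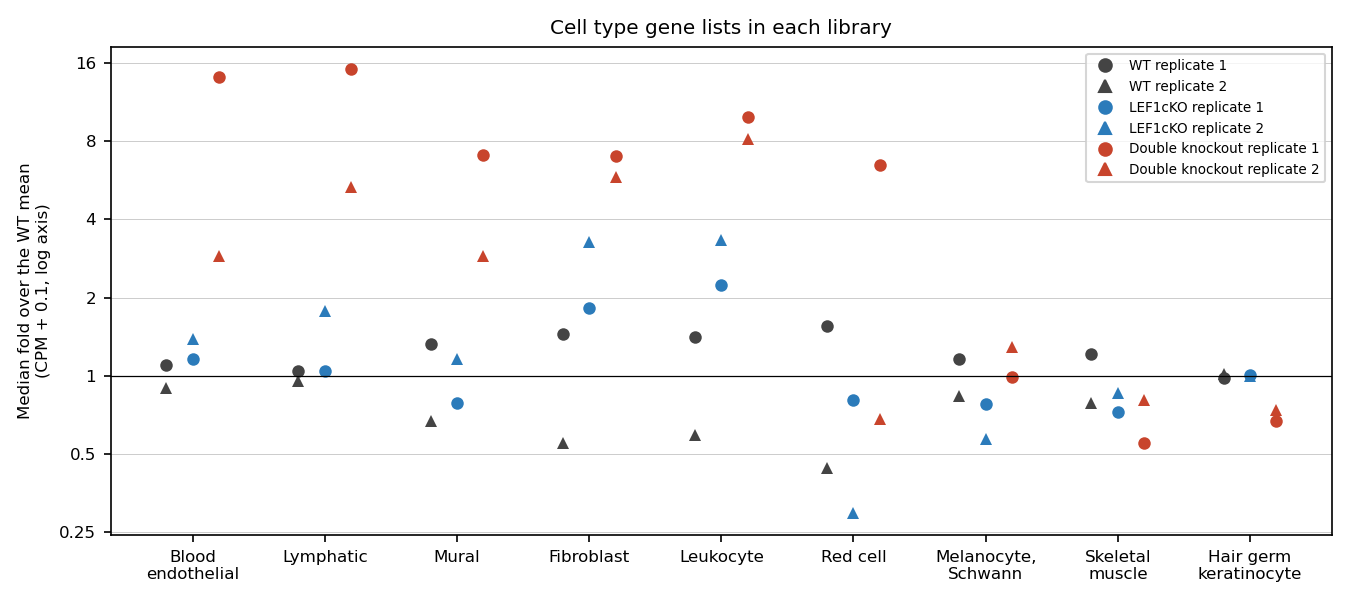
Median over each gene list of the fold over the WT mean in each library (CPM with 0.1 added, log axis), for the 3 vessel classes and the marker lists of 6 other cell types. The blood endothelial median is 14.2 in the double knockout's replicate 1 and 2.9 in replicate 2, whereas the fibroblast median is 7.02 and 5.81.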

How the data were processed

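RNA was measured in 6 libraries, 2 for each of 3 groups taken from the sample titles. Libraries came from an mRNA kit with paired reads, per the labels' protocols. The submitters' processing notes name Bowtie2 2.2.9, RSEM 1.2.30 and the mm10 build, and no source used here gives the annotation release. Expected counts are the authors' RSEM estimates for each gene, deposited unnormalized. TPM, deposited beside them per the file headers, scales these for effective length. Both depend on how RSEM's model split reads that fit several genes.

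Here 92 identifiers of other sequences (0 counts) were dropped. Rounded expected counts of all 6 libraries entered 1 fit in edgeR 4.0.16 (R 4.3.3) with group as the only term, TMM factors of 0.962 to 1.04 and filterByExpr. Quasi-likelihood F tests had 3 residual degrees of freedom, and Benjamini-Hochberg adjustment covered 19640 genes. The biological coefficient of variation was 0.232. The standard error is the log2 fold change divided by the square root of F. A count of 0 allows up to 3 counts, or 0.0475 to 0.0741 CPM, which covers counting error only. GENCODE M21 gave coordinates and the 50-base words shared between transcripts. The fit was tested on simulated data.

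The analysis was repeated with RLE factors, with library sizes alone, without a filter, with at least 1 CPM in 2 libraries, with DESeq2 1.42.0, with limma 3.58.1 on log2(TPM + 1) or log2(TPM + 0.1), with the compared groups alone, with replicate number as a block, and without each library in turn. The 31 genes and the other lists were chosen with earlier results of these data known. Each of the 31 is accounted for, and the genes of other lists that the text names were picked after their values were seen, mostly among those with small p. Some genes of other lists are not reported here.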

Additional observations from a re-analysis of the deposited data

How the results depend on the processing

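Against WT, the double knockout's 24 rises numbered 16 to 27 under the 9 alternatives that kept all libraries of both groups, and 4 to 24 with 1 library left out. The single fall numbered 0 with library size only, both limma fits and the replicate block. With 1 library left out a fall, where called, was of Mcam or of Cspg4. Against LEF1cKO, the 20 rises numbered 13 with limma on log2(TPM + 1), 13 on log2(TPM + 0.1), 10 with only the 2 groups compared, 11 with the replicate block, 25 with DESeq2, 27 with no filter, and 0 to 24 with 1 library left out; the single fall numbered 0 in library size only, both limma fits, the 2-group fit and the replicate block, and 0 to 1 with 1 library left out. Replicate numbers were not taken to pair libraries, since the labels do not say that they do. The correlations of same-numbered deviations were -0.04, 0.06 and -0.03. Taken over all tested genes, they cannot exclude pairing that touches some genes. The replicate block gave 24 rises against WT, with Pecam1 and Kcnj8 lost and Cnn1 and Myl9 gained. LEF1cKO against WT gave 0 calls among the 31 genes in every alternative run. Counts over all tested genes moved with the settings too. Against WT, 11.9% of all tested genes rose with no filter and 22.8% with the filter of 1 CPM in 2 libraries. Against LEF1cKO, 2192 genes rose in the main fit, and 2316 and 2019 with limma on log2(TPM + 1) and log2(TPM + 0.1). There were 1294 with only the 2 groups compared, 1672 with the replicate block, 3166 with DESeq2 and 2801 with no filter (of 31448 tested). No fold change that had passed reversed. Over single genes and alternatives, 87 calls against WT were lost and 13 gained, and 119 and 21 against LEF1cKO; the cause was not tested, beyond fewer libraries where 1 was left out. Scaling moved the median of all genes by over 0.1 only with limma on log2(TPM + 0.1), to 0.13 against WT.

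Class sums moved with the unit, since CPM is not corrected for length. Summed CPM was 41.5, 50.8 and 247 for blood endothelial genes, 2.76, 3.76 and 40.9 for lymphatic genes, and 386, 387 and 601 for mural genes, each for WT, LEF1cKO and the double knockout. Without the gene of each class with the highest mean over all libraries (Egfl7, Mmrn1 and Mcam), summed TPM was 18.1 (WT) and 23.2 (LEF1cKO) for blood endothelial, 1.0 (WT), 0.96 (LEF1cKO) and 7.9 (double knockout) for lymphatic, and 121 (WT) and 91.3 (LEF1cKO) for mural genes. Precision is limited by 2 libraries a group and, for genes with few counts such as Kcnj8, also by depth.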

Other observations

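Mbp, a myelin protein, was at 4.5 and 3.52 TPM for WT, 4.81 and 8.16 TPM for LEF1cKO and 46.8 and 27.7 TPM for the double knockout and rose against WT (2.88 ± 0.29, adjusted p = 0.0034). The melanocyte gene Mlana was at 36.8 and 27 TPM for WT, 27.9 and 19.7 TPM for LEF1cKO and 13.5 and 26.1 TPM for the double knockout and did not pass the test (-0.82 ± 0.39, adjusted p = 0.144).

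Red cell genes separated the double knockout's libraries more than the blood endothelial genes did. The 5 markers summed to 19.7 and 4.59 TPM for WT, 11.6 and 3.52 TPM for LEF1cKO and 165 and 6.55 TPM for the double knockout, and their median ratio of replicate 1 to replicate 2 was 6.99. Hbb-bt, an adult beta-globin, was at 1.41 and 0.24 TPM for WT, 0.51 and 0.75 TPM for LEF1cKO and 77.6 and 0.65 TPM for the double knockout, which did not pass the test (5.42 ± 1.95, adjusted p = 0.0733). Globin genes are near-identical copies, so their split between genes is uncertain. WT replicate 1 was also above WT replicate 2, with a median ratio of 6.06. Skeletal muscle markers summed to 10.9 and 7.13 TPM for WT, 5.79 and 7.96 TPM for LEF1cKO and 13.6 and 12.5 TPM for the double knockout. Of the 7 tested, Ckm rose against WT (2.70 ± 0.67, adjusted p = 0.0243) and 3 fell (Acta1, Myh1 and Myh4). Of all tested genes, 18.0% rose and 19.6% fell. Myh1 and Myh4 were at 0.23 TPM or less in every library. Myh11, a smooth muscle gene, and Des, which is not particular to smooth muscle, were at 10 TPM or more in both double knockout libraries.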
